A study of Drosophila melanogaster with 4 samples.

Results

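The nuclear genes for the subunits of oxidative phosphorylation were examined for binding of Gug, the Drosophila Atrophin, in embryos. The members were the protein-coding genes whose symbols start with ND-, UQCR, COX, ATPsyn or Sdh in the Ensembl annotation, and 88 of 13968 genes on the chromosome arms met that rule. They comprised 40 genes named for complex I, 8 for complex II, 9 for complex III, 16 for complex IV and 15 for complex V. The symbols fitted their complexes, except that Sdhaf3 encodes an assembly factor and no subunit. Subunits with other symbols, among them levy and cype of complex IV, are not members.

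All samples belonged to 1 group, 4 biological replicates of whole Drosophila melanogaster embryos aged 0 to 24 h from the strain Gug-GFP, which carries a Gug-eGFP fusion transgene. Chromatin was sonicated to 200 to 800 bp, immunoprecipitated with an anti-GFP antibody and sequenced (ChIP-seq). The labels do not name the promoter that drives the transgene, and whole embryos of this age range mix all tissues and stages, so a peak cannot be placed in a cell type. No control sample and no second condition was among the samples used here, so the comparisons are between genes and between replicates.

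Oxidative phosphorylation is the mitochondrial pathway that turns the energy of NADH and succinate into ATP. Complex I and complex II pass electrons to ubiquinone, complex III passes them to cytochrome c, and complex IV passes them to oxygen. Complexes I, III and IV pump protons, and complex V, the ATP synthase, uses the gradient. Most subunits are encoded in the nucleus, and a few, not examined here, in mitochondrial DNA. Gug is a nuclear co-repressor that is recruited to DNA by partner proteins, among them the nuclear receptor Tailless. Many Drosophila subunit genes have a duplicate whose symbol ends in L, and in flies such duplicates of energy genes are known mostly for expression in the testis.

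A gene was counted in a list when the summit of a peak lay within 1 kb of one of its transcription start sites (TSSs), and was called when this held in at least 2 of the 4 lists. Of the 88 members, 15 were called (17.0%), against 16.0% of all protein-coding genes. A peak in at least 1 list was found at 26 members (all genes 24.1%), in at least 3 lists at 8 members (all genes 11.6%) and in all 4 lists at 5 members (all genes 7.88%). No list held a peak at the other 62 members. The share of called members was near that of all genes.

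The lists differed in length, with 1948, 3786, 2117 and 2450 peaks on the arms for replicates 1 to 4. Members with a peak numbered 8, 25, 13 and 8 in the same order. These are 9.09%, 28.4%, 14.8% and 9.09% of the members, a mean of 15.3% ± 9.11 (SD, n = 4). The corresponding shares of all genes were 10.3%, 22.5%, 13.8% and 13.0%, a mean of 14.9% ± 5.30 (SD, n = 4). The members were above the share of all genes in replicates 2 and 3 and below it in replicates 1 and 4, so no difference held across the replicates. A peak in exactly 1 list was found at 11 members, and all 11 were in the list of replicate 2, the longest. Among all genes, 970 of the 1134 in exactly 1 list (85.5%) were in that of replicate 2.

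The strength of a peak is given as its percentile, the share of peaks in the same list with a signal no higher than its own. ND-ASHI, an accessory subunit of complex I, had the highest percentile of all members in each of the 4 lists. Its peak stood at the percentiles 83.6, 94.6, 90.3 and 88.0 in replicates 1 to 4 (mean 89.1 ± 4.59 SD, n = 4). The authors' signal values behind them were 112, 235, 140 and 129. ND-MWFE, another accessory subunit of complex I, stood at 69.4, 86.9, 71.6 and 86.7 (mean 78.6 ± 9.48 SD, n = 4). The values of this pair overlapped, the highest of ND-MWFE lying above the lowest of ND-ASHI.

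**Figure D1:**
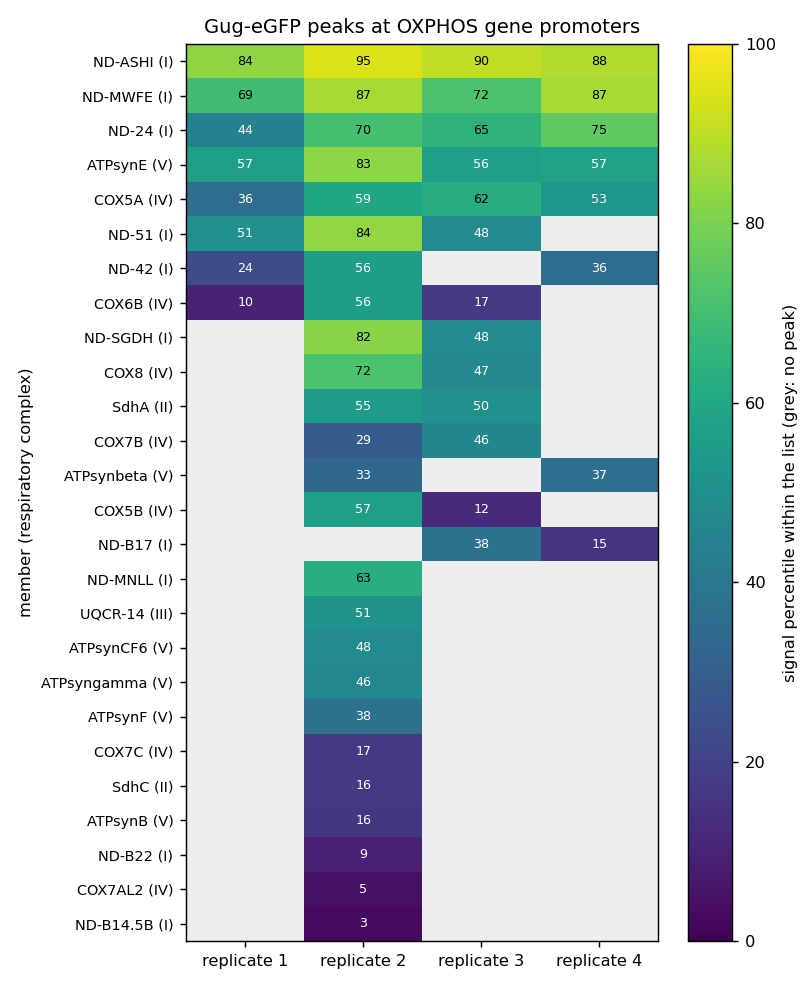
Signal percentile within each replicate's list (columns) for the 26 members with a peak in at least 1 list (rows, with the respiratory complex in brackets), where grey marks a list without a peak. The 5 members at the top have a peak in all 4 lists, and the 11 at the bottom in that of replicate 2 only.

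The other 3 members with a peak in all 4 lists belonged to 3 different complexes and stood lower. ND-24, a core subunit of complex I that carries an iron-sulfur cluster, stood at the percentiles 44.0, 70.4, 65.0 and 75.3 (mean 63.7 ± 13.8 SD, n = 4). ATPsynE, a subunit of the membrane part of complex V, stood at 56.9, 83.1, 56.3 and 57.4 (mean 63.4 ± 13.1 SD, n = 4). COX5A, a subunit of complex IV, stood at 35.7, 59.2, 62.4 and 52.7 (mean 52.5 ± 11.9 SD, n = 4). The ranges of these 3 genes overlapped, and their order is not larger than the spread between replicates.

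The sequence at the summit is shown for 4 called members whose summit lies outside annotated untranslated regions. ND-ASHI has the strongest peak, ND-51 is a core subunit of complex I, COX8 has a summit closer to itself than to its neighbour, and ND-B17 is the called member with its own TSS nearest and no divergent neighbour. Up to 100 bp on each side of the median summit were read from the RefSeq sequence of Release 6 (dm6), on the strand of the member and ending where an untranslated region begins, and capitals mark every match to a motif that was searched. The stretches are chrX:6679274-6679474 (minus strand) for ND-ASHI, chr2L:6062828-6062988 (minus strand) for ND-51, chr3L:21539448-21539602 (minus strand) for COX8 and chr2L:15751084-15751284 (minus strand) for ND-B17.
ND-ASHI: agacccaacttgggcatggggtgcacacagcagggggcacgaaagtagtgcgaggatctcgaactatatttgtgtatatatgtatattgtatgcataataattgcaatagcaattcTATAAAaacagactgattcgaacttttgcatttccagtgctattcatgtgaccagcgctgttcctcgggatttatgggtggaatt
ND-51: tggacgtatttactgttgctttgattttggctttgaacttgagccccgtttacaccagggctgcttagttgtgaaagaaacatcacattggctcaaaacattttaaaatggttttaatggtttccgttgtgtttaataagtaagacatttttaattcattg
COX8: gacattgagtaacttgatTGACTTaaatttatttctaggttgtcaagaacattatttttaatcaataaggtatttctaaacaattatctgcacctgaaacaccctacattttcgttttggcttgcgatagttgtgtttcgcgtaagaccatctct
ND-B17: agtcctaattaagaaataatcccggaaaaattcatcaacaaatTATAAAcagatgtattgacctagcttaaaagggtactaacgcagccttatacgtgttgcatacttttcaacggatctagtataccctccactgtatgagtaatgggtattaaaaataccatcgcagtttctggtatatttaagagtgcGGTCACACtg
The capitals are a match to the TATA box letters in ND-ASHI, starting 16 bp downstream of a summit that lay 256 bp upstream of the TSS. In COX8 they are a Tailless site, read on the other strand. In ND-B17 they are a match to the TATA box letters, upstream of the summit, and, near the end of the stretch, the core of the element bound by the factor M1BP. The stretch of ND-51 holds none of the motifs, and no motif is shared by all 4.

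The summits at the members with a peak in all 4 lists fell in narrow ranges across replicates. At ATPsynE they lay 60, 48, 52 and 54 bp upstream of the nearest TSS in replicates 1 to 4, and at COX5A 23, 38, 42 and 47 bp upstream. At ND-ASHI they lay 286, 257, 255 and 256 bp upstream, with replicate 1 apart from the other 3. ND-24 was the only called member with its summits downstream of its nearest TSS, at 84, 76, 68 and 61 bp, inside its 5' UTR. The median summits at ATPsynE and COX5A also lay inside the 5' UTR of the member, since each gene has a further TSS upstream of the summit.

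At each of these 5 members the peak lay in or beside a divergent promoter, one with the TSS of another protein-coding gene on the opposite strand within 500 bp. ND-ASHI faces Fum1, which encodes the fumarase of the tricarboxylic acid cycle, and the summit was 256 bp upstream of the nearest TSS of ND-ASHI and 266 bp upstream of that of Fum1. The peak was counted for both genes. ATPsynE faces Afti, whose nearest TSS was 326 bp from the summit, and COX5A faces glo, which encodes an RNA-binding protein, at 139 bp. ND-24 faces corolla, a gene of the synaptonemal complex, at 114 bp. In these 4 pairs the summit was closer to the member, whereas at ND-MWFE it lay 196 bp from the member and 25 bp from TppII, which encodes a peptidase.

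In complex I, 7 of 40 members were called (17.5%; single lists 15.6% ± 4.73 SD, n = 4). The share of all genes to set beside this and the counts of the other complexes is 16.0%. Of the 7 conserved nuclear core subunits 2 were called, ND-24 and ND-51, which both belong to the module that oxidises NADH. Of the 27 members that are neither core subunits nor L paralogs 5 were called. ND-51, the core subunit that binds FMN and NADH, had peaks in replicates 1, 2 and 3 at the percentiles 50.7, 83.8 and 48.4. ND-42, an accessory subunit, had them in replicates 1, 2 and 4 at 23.6, 56.1 and 35.8, and its summits lay 353, 363 and 194 bp upstream. ND-42 faces Cchl, which encodes the lyase that attaches heme to cytochrome c, and the summit lay 42 bp from the TSS of Cchl. In ND-42 replicate 4 stood apart, closer to the member than the other 2.

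ND-SGDH, an accessory subunit of the membrane arm, had a peak in replicates 2 and 3 at the percentiles 82.4 and 48.4, and ND-B17 in replicates 3 and 4 at 37.7 and 15.2. ND-B17 was the only called member without a peak in replicate 2. ND-B14.5B, ND-B22 and ND-MNLL had a peak in replicate 2 only, at 3.04, 9.30 and 63.2. The other 30 complex I members, among them ND-13A, ND-13B, ND-15 and ND-18, had none in any list.

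Complex IV had 5 called members of 16 (31.3%; single lists 23.4% ± 17.2 SD, n = 4), the highest share of the 5 complexes. All 5 had a divergent promoter, a class in which 30.7% of all genes were called, against 16.0% of all genes. The spread between replicates was wide, with 2, 7, 5 and 1 members in replicates 1 to 4. The share of complex IV therefore cannot be set apart from that of the other complexes. COX6B, a subunit on the side of the intermembrane space, had peaks in replicates 1, 2 and 3 at the percentiles 10.1, 56.0 and 16.8. COX8 had them in replicates 2 and 3 at 71.6 and 47.0, COX7B at 29.0 and 46.0, and COX5B, a zinc-binding subunit, at 56.7 and 12.3. Apart from COX5A, the called members of complex IV had no peak in replicate 4. COX7C and COX7AL2 had a peak in replicate 2 only, at 17.1 and 4.62. The other 9, among them COX4, COX4L, COX5BL and COX6AL, had none.

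Complex V had 2 called members of 15 (13.3%; single lists 16.7% ± 15.9 SD, n = 4). Besides ATPsynE this was ATPsynbeta, which encodes the catalytic subunit and lies on chromosome 4, with peaks in replicates 2 and 4 at the percentiles 33.0 and 36.7. Its summits lay 449 and 426 bp upstream, in an intron of the divergent neighbour CG11076. ATPsynB, ATPsynCF6, ATPsynF and ATPsyngamma had a peak in replicate 2 only, at 16.1, 48.2, 37.7 and 46.2. The other 9, among them ATPsynC, ATPsynCF6L, ATPsynD and ATPsynG, had none.

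Complexes II and III are the smallest groups. In complex II, SdhA, the flavoprotein that oxidises succinate, was the only called member of 8 (12.5%; single lists 9.38% ± 12.0 SD, n = 4). Its peaks stood at the percentiles 55.0 and 50.4 in replicates 2 and 3, but the summits lay 853 and 863 bp upstream, and the TSS of cer, which encodes a protease inhibitor, was 57 bp away. SdhC had a peak in replicate 2 only, at 16.5, and the other 6, among them SdhAL, SdhB, SdhBL and SdhCL, had none. In complex III, none of 9 members was called (single lists 2.78% ± 5.56 SD, n = 4). UQCR-14 had a peak in replicate 2, with its summit 0 bp from the TSS and the percentile 51.2, and the other 8, among them UQCR-11, UQCR-11L, UQCR-14L and UQCR-6.4, had none.

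Nearly all of the called members had a divergent promoter. A divergent promoter was found at 40 of 88 members (45.5%), against 27.8% of all protein-coding genes. Of the 40 divergent members 13 were called (32.5%), against 30.7% of all genes with a divergent promoter. Of the 48 members with a single promoter 2 were called, ND-B17 and SdhA (4.17%), against 10.3% of all genes with a single promoter. In the single lists, the divergent members had a peak in 20%, 47.5%, 27.5% and 17.5% of cases for replicates 1 to 4, and the single ones in 0%, 12.5%, 4.17% and 2.08%. The share was higher at divergent members in each of the 4 lists. The divergent members thus stood near the share of all divergent genes, and the members with a single promoter below that of all such genes in each list. Without the 18 L paralogs among them this did not hold in each list, since the other 30 had a peak in 16.7% of cases in replicate 2, against 14.9% of all genes with a single promoter. A summit in a divergent promoter lies close to the TSSs of a pair of genes and is counted for both, and how far this raises the share was not tested.

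**Figure D2:**
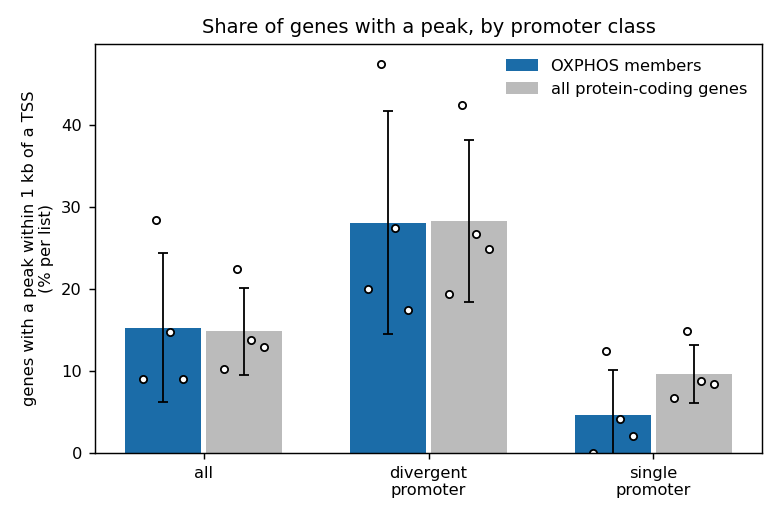
Mean share of genes with a peak within 1 kb of a TSS, in percent per list, for OXPHOS members (blue) and all protein-coding genes (grey), over all promoters, divergent ones and single ones. Bars start at 0, error bars are the SD over 4 lists (clipped at 0), and circles are replicates 1 to 4 from left to right; the divergent means are 28.1% and 28.4%, and the single means 4.69% and 9.72%.

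The 15 called members had 15 separate peak regions, and most of these regions were shared with a neighbour. Another gene had a TSS within 1 kb of the summit at 14 of the 15, against 64.9% of all called genes, and 86.7% of the called members had a divergent promoter, against 53.3% of all called genes. The member had the nearest TSS in 6 cases, ATPsynE, COX5A, COX8, ND-24, ND-ASHI and ND-B17 (40%, against 67.7% of all called genes). When a summit was given only to the gene with the nearest TSS, these 6 members were the ones still called (6.82%), against 11.3% of all genes. At the other 9 the median summit was thus closer to another gene. At COX6B the summits lay 79, 54 and 4 bp upstream in replicates 1, 2 and 3, with the TSS of CG33932 96 bp upstream. The summit in replicate 3 was therefore closer to COX6B.

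At 12 of the 13 called divergent members the summit lay upstream of the nearest TSS of both genes, and at 8 of the 13 the partner was the nearer gene. The distances from the partner were 42 bp at CG33932 beside COX6B, 60 bp at IFT52 beside COX5B, 59 bp at Sec3 beside COX7B, 61 bp at CG13994 beside ND-51 and 88 bp at RhoGAP68F beside ND-SGDH. CG11076, beside ATPsynbeta, was 71 bp from the summit. COX8 was the reverse case, 55 bp from the summit against 360 bp for VhaM9.7-b, a gene of the vacuolar proton pump. The median distance from a called member to its summit was 196 bp (range 40 to 858), against 175.5 bp over all called genes. The median summit was intergenic at 8 called members, in a 5' UTR at 4, in an intron at 3 and in a coding exon at 0.

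**Figure D3:**
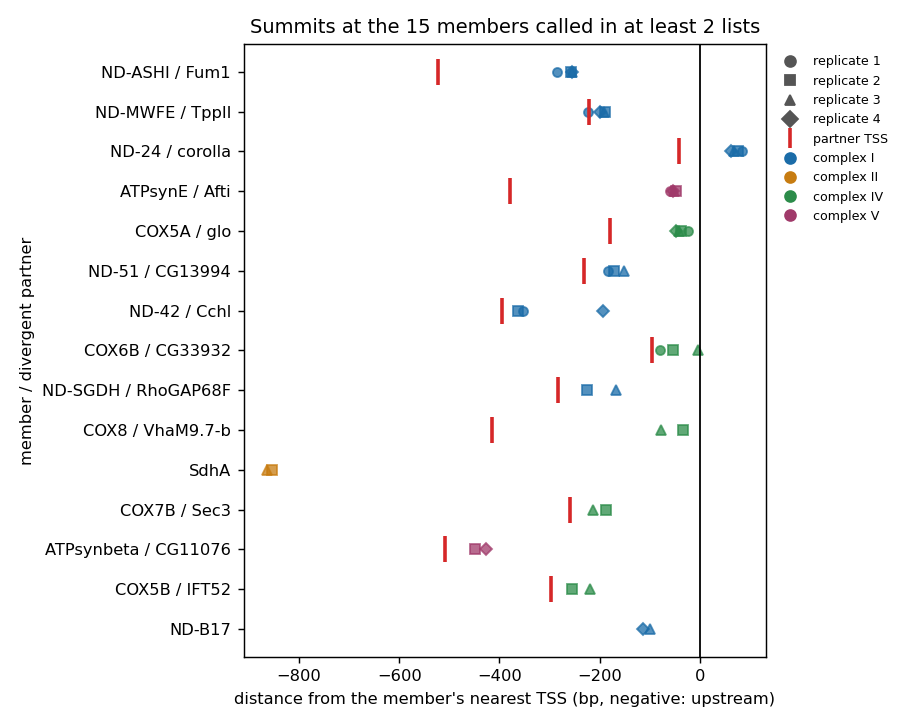
Position of the summit in each replicate's list (symbols, coloured by complex) relative to the member's nearest TSS (black line at 0, distance in bp, negative upstream), with the partner's TSS nearest to the summit as a red bar. Most summits lie between the TSSs of the pair, those of ND-24 lie downstream of its TSS, and those of SdhA lie beyond 800 bp.

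The peaks at members were of ordinary strength. The median over the 15 called members of their mean percentile was 52.7, against 55.2 over all 2232 called genes. Only ND-ASHI and ND-MWFE had a mean above 75, whereas 24.8% of all called genes did. The 11 members with a peak in 1 list had a median percentile of 17.1 (range 3.04 to 63.2). The GC content of the 201 bp at the summits was 37.4% ± 6.29 (SD over 15 called members), against 38.1% ± 6.35 (SD over all called genes).

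The L paralogs are 20 members whose symbol is that of another member with a final L, or L and a digit. None of the 20 was called, against 16.0% of all genes and 10.3% of all genes with a single promoter, the class of 18 of them. With so few genes, the 0 is not set apart from these shares. The one with a peak was COX7AL2, in replicate 2, with the summit 551 bp downstream of the TSS. The others without a peak were ATPsynCF6L, ATPsynGL, ATPsynbetaL, COX4L, COX5BL, COX7AL, COX7CL, ND-20L, ND-24L, ND-49L, ND-51L1, ND-51L2, ND-B14.5AL, SdhAL, SdhBL, SdhCL, UQCR-11L, UQCR-14L and UQCR-6.4L. Of the other 68 members 15 were called (22.1%). These 68 include ATPsynepsilonL, COX6AL, COX6AL2 and COX6CL, whose names also end in L or L and a digit but have no member of the shorter name, and none of which had a peak. Of the 18 genes that the L paralogs are named after, 5 were called, ATPsynbeta, COX5B, ND-24, ND-51 and SdhA, and 9 had a peak in at least 1 list. Over all genes these shares were 16.0% and 24.1%. A divergent promoter was found at 2 of the 20 L paralogs (10%) and at 38 of the 68 others (55.9%). Of the 48 members with a single promoter, 18 were L paralogs and 30 were not. Within the 68 others, 13 of 38 divergent members and 2 of 30 single ones were called. The files hold no expression values, so whether the L paralogs are active in these embryos was not examined.

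The absence of a peak from a thresholded list is not the absence of signal. The ranked lists, deposited without that threshold, held 49135, 36545, 40137 and 32752 peaks for replicates 1 to 4. Among members without a thresholded peak in a given replicate, 53.8%, 47.6%, 45.3% and 47.5% had a ranked peak near a TSS, against 57.7%, 49.2%, 54.2% and 48.5% of all genes in that position. The members were below all genes in each list, with the widest gap in replicate 3 and narrow ones in replicates 2 and 4. Of the 62 members in no thresholded list, 5 had a ranked peak in all 4 replicates (8.06%, against 15.2% of genes). A ranked peak was in none of the replicates at 10 (16.1%, against 17.9% of genes). In the authors' lists made from all 4 replicates together, the conservative one held a peak at 17 members (all genes 19.7%) and the longest one at 20 (all genes 22.9%). All 15 called members were in the longest list and 14 in the conservative one, which lacked ND-42.

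Short sequence motifs were counted in the promoters, from 250 bp before to 50 bp after the TSS. Matches were taken at any position in the window and on both strands, except that the TATA box was read on the strand of the gene. The DRE, spelled TATCGATA, was found in 9.09% of member promoters and 8.95% of all promoters. The Tailless site, spelled AAGTCA, was found in 18.2% of member promoters and 16.2% of all. The TATA box, spelled TATAAA, stood at 38.6% and 32.2%, and the E-box, spelled CAGCTG, at 26.1% and 17.9%. The element of the GAGA factor, spelled GAGAG, was the common motif that was rarer in member promoters, at 23.9% and 30.2%. The ERR site, the letters AAGGTCA read by the nuclear receptor ERR, stood at 1.14% and 2.10%. The M1BP core was spelled GGTCACAC. The widest gap in ratio among the more common motifs was that of the M1BP core, in 17 member promoters (19.3%) against 7.53% of all promoters and 14.1% of divergent ones.

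The M1BP core was found in the promoters of 5 of the 15 called members, COX5A, COX5B, COX7B, ND-B17 and ND-MWFE. It was also found in 12 of the 62 members in no list (19.4%), among them ATPsynC, COX4 and SdhB, and in 1 of the 20 L paralogs. Within 100 bp of the summit it matched at 1 called member, ND-B17 (6.67%, against 3.85% of all called genes). The match thus marked called and uncalled members at shares whose difference rests on a few genes. In the same summit windows a Tailless site matched at 3 called members (20%, against 9.45% of all called genes), COX7B, COX8 and ND-24. A DRE, the element of the factor Dref, matched at 1, ATPsynE (6.67%, against 7.57%). A match to a short consensus is a description of the letters and no evidence of a bound factor.

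**Figure D4:**
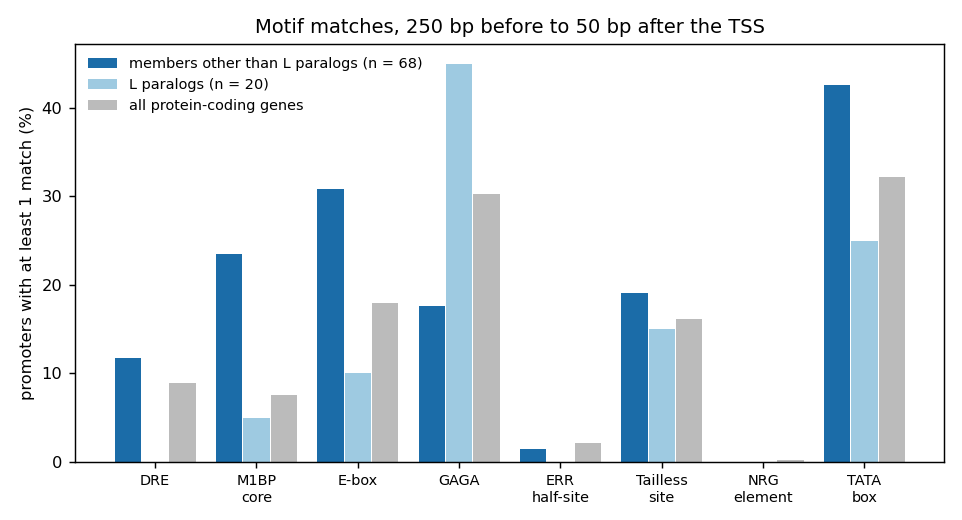
Share of promoters with at least 1 match (percent) for 8 motifs, from 250 bp before to 50 bp after the TSS, in the 68 members other than L paralogs (dark blue), the 20 L paralogs (light blue) and all protein-coding genes (grey). The NRG element is plotted in its longer spelling, and the M1BP core stands at 23.5%, 5% and 7.53%, and GAGA at 17.6%, 45% and 30.2%.

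The NRG element is a palindrome described in Drosophila nuclear genes for respiratory subunits. It had the widest gap between members and all genes, in a spelling and window added later, which is a description with no test. Since the element was described in genes of the same kind as the members, the gap is no independent result. In the longer spelling searched at first it was in none of the member promoters and in 0.143% of all promoters. The shorter palindromic consensus and a window from the TSS to 500 bp after it were added after those values had been seen. In the first promoter window the shorter consensus was also in none of the members, against 0.873% of all protein-coding genes. From the TSS to 500 bp after it, the shorter consensus was found at 24 of 88 members (27.3%). The shares there were 1.22% of all protein-coding genes and 1.39% of those with a divergent promoter. All 24 were among the 68 members other than L paralogs (35.3%), and none of the 20 L paralogs had one. The sites started 151 to 453 bp after the canonical TSS, with a median of 238 bp.

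The element was found at members with and without a Gug-eGFP peak. It was present at 8 of the 15 called members (53.3%), ATPsynE, COX5B, COX6B, COX7B, ND-24, ND-51, ND-B17 and SdhA, and at 12 of the 62 members in no list (19.4%), among them ATPsynC, ATPsynD, COX4 and UQCR-C1. Among all called genes the share was 1.57%. The 30 bp around the site are shown for 7 of the called members, with the 10 bp of the site in capitals, because this is the motif with the widest gap to all genes. They lie at chr3R:14327257-14327286 (ATPsynE), chr2L:6558168-6558197 (COX5B), chrX:19744025-19744054 (COX6B), chr3L:17425683-17425712 (COX7B), chrX:17632522-17632551 (ND-24), chr2L:6062499-6062528 (ND-51) and chr2L:15750683-15750712 (ND-B17) on dm6, and are written on the strand of the gene, which is minus for COX6B, ND-51 and ND-B17 and plus for the others.
ATPsynE: cggtcggacaATTACATAACttgaagaaga
COX5B: aaagtgcgagGTTATGTAATaactatgcgc
COX6B: aaaagtacaaGTTACATAACtcgctgatgc
COX7B: aaccttaaaaATTACATAATgtggataagc
ND-24: tgttccccgaGTTATATAATtggcgacagg
ND-51: atgccatcaaATTATGTAATttttgcgcaa
ND-B17: tgtcgtgggtATTATGTAATcaagtttttg
The site and the peak did not coincide. These sites were searched only from the TSS to 500 bp after it, so their place downstream follows from the window. At ATPsynE the site started 320 bp downstream of the canonical TSS, and the median summit lay 53 bp upstream of the other TSS, which is the nearest to it. That summit lay downstream of the canonical TSS, between it and the site. At ND-51 the site started at 239 bp downstream and the summit lay 171 bp upstream. At ND-24, where the summit lay 72 bp downstream, the site started at 443 bp.

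**Figure D5:**
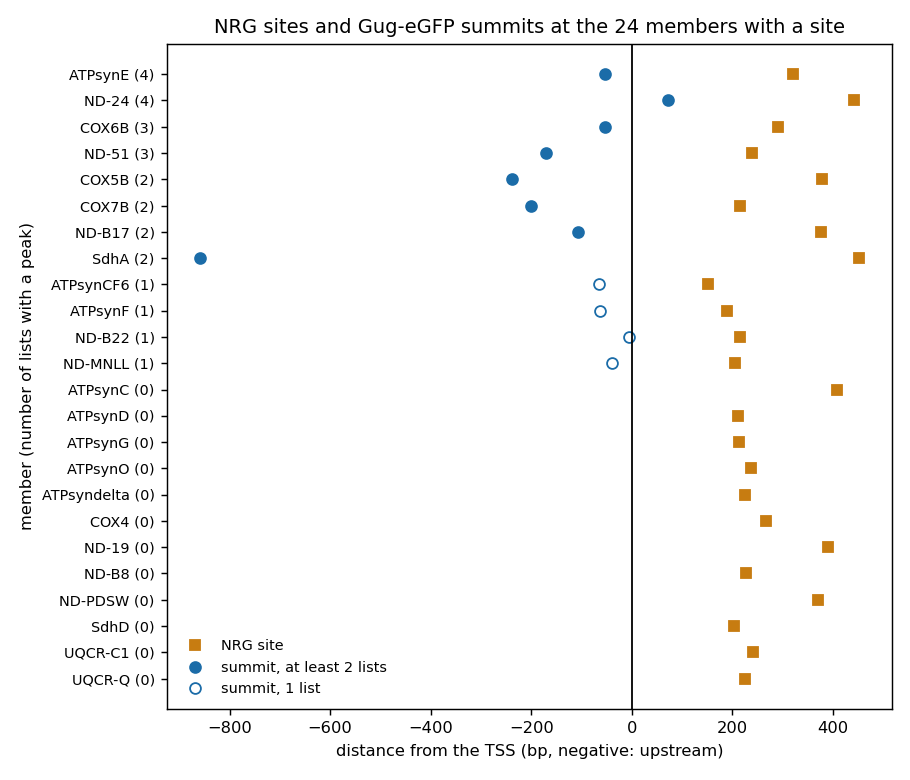
Start of the NRG site (orange squares) and median summit (circles, filled for at least 2 lists and open for 1 list) in bp from the TSS (canonical for the site, nearest to the summit for the peak), for the 24 members with a site, ordered by the number of lists with a peak. Sites were searched only from the TSS to 500 bp after it, so their place downstream (151 to 453 bp) follows from the window. The summits lie elsewhere, most of them upstream of the TSS nearest to them.

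Related genes of mitochondrial energy metabolism were read from lists of genes outside the rule. Among electron carriers and assembly factors, a list that also holds the complex IV subunits levy and cype, 8 of 14 were called, among tricarboxylic acid cycle genes 6 of 16, among regulators of mitochondrial genes 5 of 13 and among mitochondrial carriers and channels 1 of 7, against 16.0% of all genes. These lists are short and were chosen with other results of these data known, so the shares are a description. CIA30, an assembly factor of complex I, stood at the percentiles 99.2, 99.4, 99.4 and 99.2 in replicates 1 to 4, above each member in each list. The levy gene, which encodes subunit VIa of complex IV under a symbol outside the rule, stood at 84.2, 97.6, 94.6 and 87.5. Cyt-c-p and Cyt-c-d, the neighbouring cytochrome c genes, had peaks in all 4 lists, with means of 79.8 ± 6.57 and 85.8 ± 5.13 (SD, n = 4). The summits lay 899, 941, 933 and 951 bp downstream of the nearest TSS of Cyt-c-p, near the limit of the 1 kb window. From that of Cyt-c-d they lay 398, 419, 411 and 396 bp downstream.

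Of the remaining assembly genes, Cox17, a copper chaperone, was in 2 lists, and Coa8, Ccdc56 and Cchl in 3 each. The peaks of Cchl are those of the member ND-42. Ccdc56 and the regulator mtTFB1 share a locus and the same peak. In the tricarboxylic acid cycle list the called genes were Idh3b, Idh3g, mAcon1, Ogdh, Pdhb and Fum1, whose peak is that of ND-ASHI. The called carrier was Ucp4A, with a mean percentile of 83.4 ± 8.42 (SD, n = 4). The called regulators were ERR, a nuclear receptor known for the control of energy metabolism in Drosophila, M1BP, mtSSB, Hnf4 and mtTFB1. ERR stood at 58.4, 92.2, 88.6 and 79.5 in replicates 1 to 4, and its percentile in replicate 1 was the lowest of the 4.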

How the data were processed

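ChIP-seq of Gug-eGFP was analysed from peak lists of 4 embryo replicates on dm6. Per the README deposited with each sample, the authors made a thresholded list (by irreproducible discovery rate, IDR) and a longer ranked list from that replicate's alignment and further inputs whose role is not stated. Which aligner and peak caller were used is not given in the sources used here. The signal of each peak is the authors' deposited value for that peak, used here for ranking within a list only. The deposited −log10 q-value served for alternatives. The peak lists give no read counts, so depth is unknown, and no interval that needs it is given. The lowest deposited IDR score in the thresholded lists was 830. No columns of other samples were present.

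TSSs were taken from the Ensembl 115 annotation, and sequence from RefSeq Release 6. Of 13924 annotated start codons 13912 (99.9%) read ATG in that sequence, and 0 peaks passed the end of their arm. Where a list had several peaks with a summit within 1 kb of a TSS of a member, the one with the highest signal was taken. Coordinates are 1-based. No test was run over members, and replicates are given as mean ± SD. Every called member, every member in 1 list and every L paralog is named. At least the 10 called members with the most lists are given with the values of every list, and of the other members in no list up to 4 per complex are named in alphabetical order. The members, gene lists, motifs and rules were chosen with earlier results of these data known. Nothing in the labels states that the biological replicates came from separate collections of embryos. The steps were checked on simulated summits. Python 3.11.15, NumPy 2.4.6 and Matplotlib 3.10.9 were used. Alternatives covered the window, the number of lists, the peak set, the nearest gene, the promoter class, motif windows and each replicate left out.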

Additional observations from a re-analysis of the deposited data

Results flagged for a closer look

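Over 20 groups of 4 values checked, 4 had 1 value far from the other 3. The rule used flags about 1 in 20 groups of independent, continuous values by chance. The groups here come from the same 4 lists, and those of complex III and the L paralogs rest on 1 gene each. The count of 4 therefore cannot be set against that rate. The signal percentile of ATPsynE was 83.1 in replicate 2, against 56.3 to 57.4 in the others. The summit at ND-ASHI lay −286 bp from its TSS in replicate 1, against −257 to −255 bp in the others. The share of complex III members with a peak was 11.1% in replicate 2 and 0% in the others, which is 1 gene, UQCR-14. The share of L paralogs with a peak was 5% in replicate 2 and 0% in the others, which is COX7AL2. Replicate 2, which gave 3 of these values, had the longest list, and its part in them was not tested.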

How the results depend on the processing

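No paired analysis was possible because the samples form 1 group. Of the main count of 15 called members, beside 16.0% of all genes, other settings gave 8 with a 200 bp window (all genes 9.43%), 26 for at least 1 list (24.1%), 8 for at least 3 lists (11.6%), 5 for all 4 lists (7.88%), 6 for the nearest TSS only (11.3%) and 7 for the stronger 50% of each list (9.40%); the cause was not tested beyond the fewer or more peaks that each setting admits. Windows of 500 bp and 2 kb, the peak interval, canonical TSSs and lists of equal length gave between 12 and 21. The authors' series lists and ranked lists fell in that range. So did a filter on the −log10 q-value, which was added after the data had been seen. The shares of all genes in these settings were 13.4% to 22.9%. Without replicate 2 or without replicate 3, 9 members were called (all genes 12.0% and 13.5%), and the range over the replicates left out was 9 to 15. Both leave out COX5B, COX7B, COX8, ND-SGDH and SdhA. Without replicate 2 ATPsynbeta was also lost, and without replicate 3 ND-B17. When a divergent promoter needed a partner within 250 bp, 25 members were divergent, of which 8 were called (all divergent genes 27.1%). Of the single ones 7 were called (all single genes 14.1%). Called members with a single promoter numbered 1 with a 500 bp window, 5 with a 2 kb window and 0 to 2 with a replicate left out, and called divergent ones 8 to 13 with a replicate left out. No L paralog was called with a 500 bp window, in all 4 lists, with a replicate left out or with a wider naming added after the data had been seen, while COX7AL2 was in the authors' longest list. The other members gave 5 for all 4 lists and 9 to 15 with a replicate left out. With 250 bp either side of the TSS the E-box and GAGA each stood at 37.5% of member promoters, against 26.2% and 44.2% of all promoters. Within 100 bp of the summits of called members the M1BP core and GAGA stood at 6.67%, the TATA box at 26.7% and the ERR site at 0%. The shares of all called genes were 3.85%, 21.9%, 20.1% and 1.03% in the same order. The NRG element stood at 0% in its longer spelling. In the first promoter window the shorter consensus also stood at 0% of members, against 0.873% of all genes. With the shorter consensus it stood at 15.9% of members 250 bp either side of the TSS, against 1.45% of all genes. From the TSS to 500 bp after it, the shares were 27.3% and 1.22%. All settings with the shorter consensus were added after the data had been seen. Ranking peaks by −log10 q moved the mean percentile of 6 of the 15 called members by more than the spread between replicates. List length and the unknown depth limit what the absence of a peak can show.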
